A study of Mus musculus with 6 samples.

Results

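The genes described here are the histone genes of the mouse prostate cancer cell line TRAMP-C2, after exposure to the platinum drugs oxaliplatin (Oxali) or cisplatin (Cispl). They were taken by symbol from a table of expected counts. Every protein-coding gene was included whose GENCODE M21 symbol starts with Hist1h, Hist2h, Hist3h, Hist4h, H2af or H3f3, together with H1f0 and H1fx. This gave 80 of the 54446 genes of the table. Of these 67 carry the cluster symbols of replication-dependent histones and 13 carry symbols of histone variants. Both classes were set by symbol alone. TRAMP-C2 is a male line of C57BL/6 background that was derived from a prostate tumor of a TRAMP transgenic mouse. Cells were left without drug (Ctrl) or given 2 µM Oxali or 2 µM Cispl, all for 24 h, with 2 libraries of poly(A)-selected RNA in each of the 3 groups. The labels do not say whether the 2 libraries of a group came from separate cultures, so the tests measure the spread between these libraries, which may be technical.

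Histones package DNA into nucleosomes, which hold the core histones H2A, H2B, H3 and H4, while the linker histone H1 binds where the DNA enters and leaves. Replication-dependent histone genes lie in clusters, are expressed mainly in S phase and give mRNAs that normally end just after a conserved stem-loop instead of carrying a poly(A) tail. Variant histone genes mostly lie apart, are expressed through the cell cycle, and give ordinary polyadenylated mRNAs. Libraries made from poly(A) RNA therefore favor the variants, and of the replication-dependent genes they capture only transcripts with a poly(A) tail or an internal run of A. Both drugs are platinum compounds that crosslink DNA. They differ in their ligands, since Cispl carries ammine and chloride ligands and Oxali carries a diaminocyclohexane carrier and an oxalate leaving group.

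Depth was even, at 21345312 to 24041767 counts in a library. A count of 0 therefore allows up to 3 counts, which is 0.125 to 0.141 CPM when scaled by the total of the library. Intervals of this kind cover counting error only. Control replicate 1 and control replicate 2 differed more from each other than did the replicates of either drug group. The chi-square statistic per gene between replicates was 4.62 for Ctrl, 2.81 for Oxali and 2.80 for Cispl, and values that rest on control replicate 1 are given below. The labelled cell type was checked against markers. Of the epithelial markers 4 of 6 passed the filter on low counts, of the mesenchymal markers 3 of 3, of the leukocyte markers 1 of 3 (Cd68) and of the endothelial markers 0 of 2. The epithelial marker Krt5 and the leukocyte marker Adgre1 had 0 counts in every library, while the leukocyte marker Ptprc had at most 1 count and the epithelial marker Epcam at most 2 counts in any library. Summed over the mesenchymal list, normalised counts (counts divided by a size factor per library) ranged from 173173 to 189710 in Ctrl, from 165362 to 165877 with Oxali and from 163727 to 169413 with Cispl. The same sums ranged from 708 to 751, 755 to 771 and 960 to 962 for the epithelial list, from 32.5 to 43.6, 31.7 to 32.5 and 50.1 to 51.0 for the leukocyte list, and from 1.97 to 2.08, 2.05 to 5.57 and 3.07 to 8.82 for the endothelial list.

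Annotated transcripts were searched for the stem-loop that marks the end of an ordinary replication-dependent histone mRNA. The motif was GGNNCTNNTNAGNNCC with both 6-base arms able to pair, read on the transcript strand. It was found in 46 of the 67 replication-dependent genes and in 1 of the 13 variants, H2afx. Among 9 different stem-loops the most common, found in 26 genes, was the one of Hist1h1c and Hist3h2a. The stem-loops of the genes with the most counts are shown in capitals, each with 5 bases of flank on either side, because these genes had the most counts among those in which it was found.
Hist1h1c: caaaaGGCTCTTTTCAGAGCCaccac
Hist1h4i: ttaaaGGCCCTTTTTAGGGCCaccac
Hist3h2a: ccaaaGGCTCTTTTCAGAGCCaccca
H2afx: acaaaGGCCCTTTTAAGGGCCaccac
In these 4 genes the annotated transcript runs on for 840, 330, 1643 and 822 bases after the stem-loop, in the order printed, and each ends within 50 bases of a poly(A) signal (AATAAA or ATTAAA). Hist1h2bc and Hist2h2be held no match to the motif in their annotated transcripts, which says only that these letters are not there.

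Of the replication-dependent genes with the most counts, Hist1h1c, Hist1h2bc and Hist3h2a had annotated transcripts of 1560, 1156 and 2146 bases, and Hist1h4i one of 727. Some longer transcripts had few counts, such as Hist1h1d (7425 bases, mean 19.1) and Hist4h4 (2863 bases, mean 2.17). In 23 of the 67 replication-dependent genes the annotation ends within 100 bases of the stem-loop. Of these 7 passed the filter (at least 10 counts in at least 2 libraries), none had a mean of 100 normalised counts, and the highest mean was 11.7. In another 23 the annotation runs over 100 bases past the stem-loop, and 13 of these passed, 3 with a mean of at least 100. Of 17 genes with no stem-loop and a transcript under 800 bases 2 passed. All 4 genes with no stem-loop and a transcript of 800 bases or more passed, and 1 of them (Hist1h2bc) had a mean of at least 100. A poly(A) signal stood within the last 50 bases in 17 of the 67 replication-dependent genes, of which 9 passed, and in 10 of the 13 variants, all of which passed. The length limits were chosen after the values were seen, and longer annotated transcripts also give more reads per molecule. These groups also differed in the median share of 50-base stretches found in no other gene's transcripts. It was 39.6% where the transcript ends near the stem-loop and 75.5% where it runs on. Without a stem-loop it was 14.2% for the shorter and 40.3% for the longer transcripts. What the transcript end adds beside these differences was not tested. Per kilobase of exonic sequence, the median level over all genes was 7.48 counts where the transcript ends near the stem-loop and 5.98 where it runs on, so the medians per length did not show the order that the counts of passing genes showed.

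**Figure D1:**
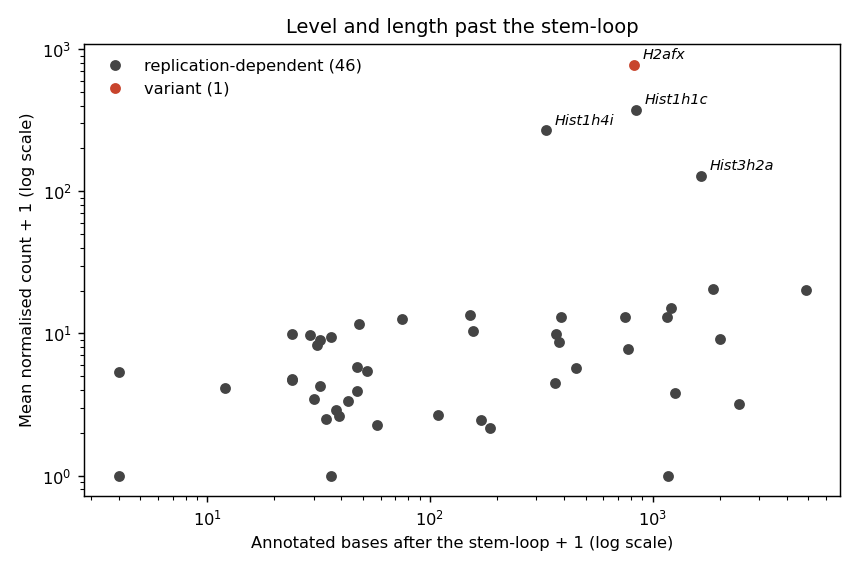
Each point is a histone gene in which the stem-loop was found (46 replication-dependent, 1 variant), plotted by the annotated bases after the stem-loop and by the mean normalised count over the 6 libraries, both plus 1 on log axes. The points at or above 100 counts, which are Hist1h4i, H2afx, Hist1h1c and Hist3h2a, lie at 330 to 1643 bases past the stem-loop.

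Of the replication-dependent genes 26 of 67 passed the filter, 62 had at least 1 count in some library, 10 had at least 10 counts in every library, and 3 had at least 100 in every library. Of the 41 that did not pass, 5 (Hist1h2aa, Hist1h2ah, Hist1h2ap, Hist2h2aa1 and Hist2h3c1) had 0 counts throughout, and the mean normalised counts of the rest reached 8.12 at most. The share of 50-base stretches found in no other gene's transcripts was 0% for Hist2h2aa1 and Hist2h3c1. It was 6.9% for Hist1h2ap, 7.9% for Hist1h2ah and 76.25% for Hist1h2aa. Where this share is low, 0 counts can mean that reads were given to another copy, so absence of RNA is not shown. By protein, the filter was passed by 3 of 6 H1 genes, 4 of 18 H2A genes, 9 of 18 H2B genes, 5 of 12 H3 genes and 5 of 13 H4 genes. No H3 gene of the clusters reached a mean of 100, the highest being Hist1h3d with 12.1. Of the variants 10 of 13 passed, each with at least 100 counts in every library, while H2afb1, H2afb2 and H2afb3 on the X chromosome had 0 counts throughout. Of the replication-dependent genes 54 lie on chromosome 13 (GRCm38, chr13:21715763-23934851), 10 on chromosome 3, 2 on chromosome 11 and 1 on chromosome 6. The 13 variants lie on 9 chromosomes. On chromosome 6 the single replication-dependent gene, Hist4h4 (chr6:136801553-136804415), lies close to the variant H2afj (chr6:136808244-136810074).

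A few genes held most of the replication-dependent counts. Hist1h1c, Hist1h2bc, Hist1h4i, Hist3h2a and Hist2h2be together had 79.4% and 79.8% of them in the Ctrl libraries. Their share was 75.3% and 78.3% with Oxali and 72.6% and 70.1% with Cispl. Levels were also taken per kilobase of exonic sequence, as means over the 6 libraries. They were 369 normalised counts for Hist1h4i, 316 for Hist1h2bc, 239 for Hist1h1c, 59.6 for Hist3h2a and 26.6 for Hist2h2be. The length joins all annotated exons of a gene, so genes with several transcripts can be understated. H2afy, for example, has 6809 exonic bases and a longest transcript of 4018. On the same scale the 10 variants that passed the filter ranged from 118 for H1fx to 6625 for H2afz, with H3f3b at 4197, H3f3a at 1852 and H1f0 at 1376. Hist1h4i, Hist1h2bc and Hist1h1c thus lay within the range of the variants in level per length, above H2afj (225), H2afy2 (159) and H1fx (118). Near-identical copies limit how exactly counts of the clusters can be split among genes. The median share of 50-base stretches found in no other gene's transcripts was 46% over replication-dependent and 90.3% over variant genes, and it was 91.5% for Hist1h1c, 71.1% for Hist1h4i, 69.4% for Hist1h2bc and 68.5% for Hist3h2a.

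**Figure D2:**
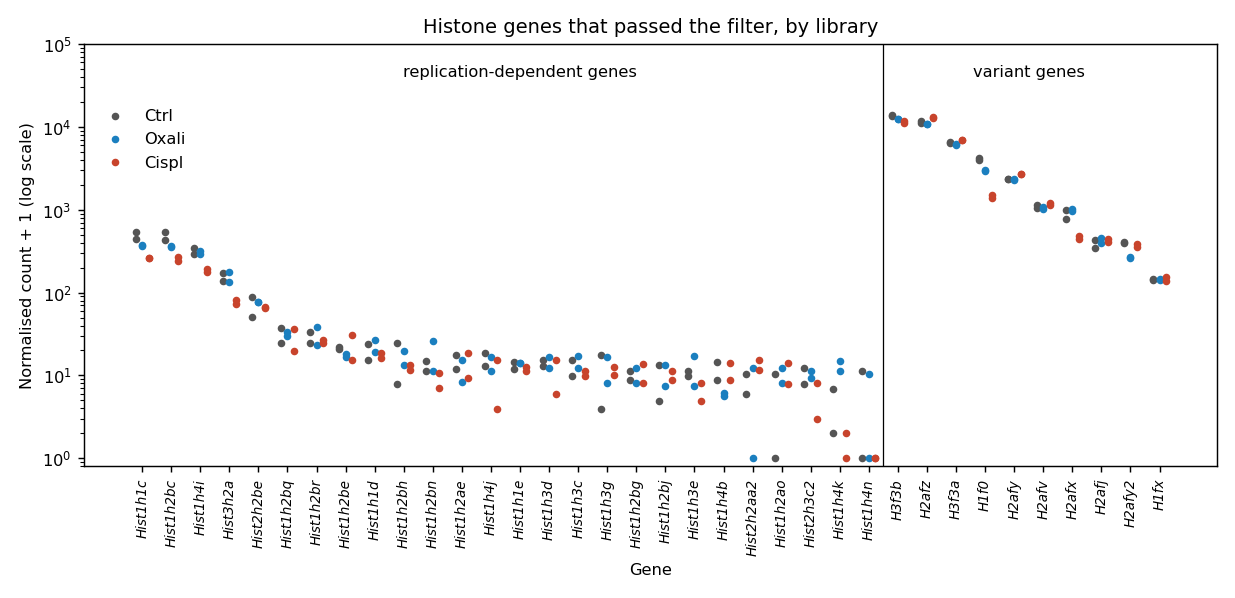
Normalised count plus 1, on a log axis, of the 26 replication-dependent and 10 variant histone genes that passed the filter, with 1 point per library and colors for Ctrl, Oxali and Cispl. Within each class genes are ordered by mean, from 372 for Hist1h1c down to 3.28 for Hist1h4n among the replication-dependent genes, while every variant point lies above 100.

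Both drugs were first compared with Ctrl over the sums of each class, since a sum does not depend on how reads were divided among copies within the class. Reads shared with genes outside it, such as the pseudogene H3f3c or Trim17, can still move a sum. Summed replication-dependent counts were 2112 and 1682 in the Ctrl libraries, 1642 and 1653 with Oxali, and 1179 and 1162 with Cispl. The Cispl libraries lay below all others, and the Oxali libraries lay just below control replicate 2. The means were 1897 ± 304 (SD, n = 2), 1648 ± 7.39 and 1171 ± 11.97, a log2 ratio to Ctrl of −0.20 for Oxali and −0.70 for Cispl. Without control replicate 1 the Oxali ratio was −0.03 and the Cispl ratio −0.52. Sums over the variants were 41669 and 40079 in Ctrl, 37033 and 37668 with Oxali and 38774 and 37652 with Cispl, so both drug groups lay below Ctrl, by log2 ratios of −0.13 and −0.10. In bulk RNA, fewer cells that express a gene and less RNA per cell cannot be told apart.

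Within the clusters the H1, H2A, H2B and H4 sums were each lower with Cispl. The log2 ratio of Cispl to Ctrl was −0.83 for H1, −0.67 for H2A, −0.64 for H2B and −0.72 for H4. For H3, whose sums were 87.2 and 53.2 in Ctrl and 45.1 and 67.5 with Cispl, the libraries overlapped. With Oxali the log2 ratios were −0.36 for H1, −0.26 for H2B, −0.06 for H4, −0.04 for H2A and 0.11 for H3 (70.6 and 80.8), and the libraries of H2A, H3 and H4 overlapped with those of Ctrl. The H1, H2A, H2B and H4 sums are led by Hist1h1c, Hist3h2a, Hist1h2bc and Hist1h4i, which are given below. The decreases of these sums with Cispl thus largely repeat those of single genes. Together with Hist2h2be, these genes held 72.6% and 70.1% of all replication-dependent counts with Cispl, against 79.4% and 79.8% in Ctrl. Sums of the remaining genes of each protein were not computed, so a decrease across a whole protein class is not shown.

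Oxali and Ctrl were compared gene by gene to ask which histone mRNAs the drug changed. With Oxali 0 replication-dependent genes were higher and 2 were lower (Hist1h1c and Hist1h2bc) of 26 tested, and 0 variants were higher and 4 were lower (H1f0, H2afy2, H2afz and H3f3b) of 10 tested. Over all genes 20.2% were called in this contrast, 10.7% higher and 9.5% lower, at a DESeq2 adjusted p under 0.05. At an unadjusted p under 0.05 DESeq2 also found 0 members higher in either class, and edgeR called 0 higher in both classes with 2 replication-dependent and 3 variant genes lower. The median log2 fold change was 0.02 over the 26 replication-dependent and −0.07 over the 10 variant genes, against −0.003 over all genes tested. The libraries did not overlap for 5 of the 26 and 6 of the 10, against 64.8% of all genes. Counts and medians of this kind describe the members that passed the filter, not all members.

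Cispl against Ctrl, which uses the same Ctrl libraries, gave more calls in both classes. Of the replication-dependent genes 0 were higher and 4 were lower (Hist1h1c, Hist1h2bc, Hist1h4i and Hist3h2a), and of the variants 3 were higher (H2afy, H2afz and H3f3a) and 3 lower (H1f0, H2afx and H3f3b). Over all genes DESeq2 called 28.1%, 15.7% higher and 12.4% lower. No replication-dependent gene was higher at an unadjusted p under 0.05 in DESeq2 or by edgeR, which called 4 lower. The 4 genes called are also all the replication-dependent genes with a mean of at least 100. The median log2 fold change was −0.25 over the 26 replication-dependent genes and 0.06 over the 10 variants, against −0.001 over all genes. The libraries did not overlap for 8 of the 26 and 8 of the 10, against 69.4% of all genes.

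The other 22 replication-dependent genes had means of 3.28 to 69.8 normalised counts and could not be measured closely. Their log2 fold changes with Cispl ranged from −4.82 to 1.12, with a median SE of 0.87. An adjusted p was given by DESeq2 for 5 of them in this contrast and for 1 in each of the others, since independent filtering sets aside genes of low mean. None of the 22 was called, and none had an unadjusted p under 0.05 in either contrast with Ctrl or was called there by edgeR. The highest of them, Hist2h2be, which encodes an H2B, had 87.2 and 50.2 normalised counts in Ctrl, 75.2 and 75.7 with Oxali and 63.7 and 66.5 with Cispl, and its log2 fold change with Cispl was −0.08 with an interval of −0.79 to 0.64.

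**Figure D3:**
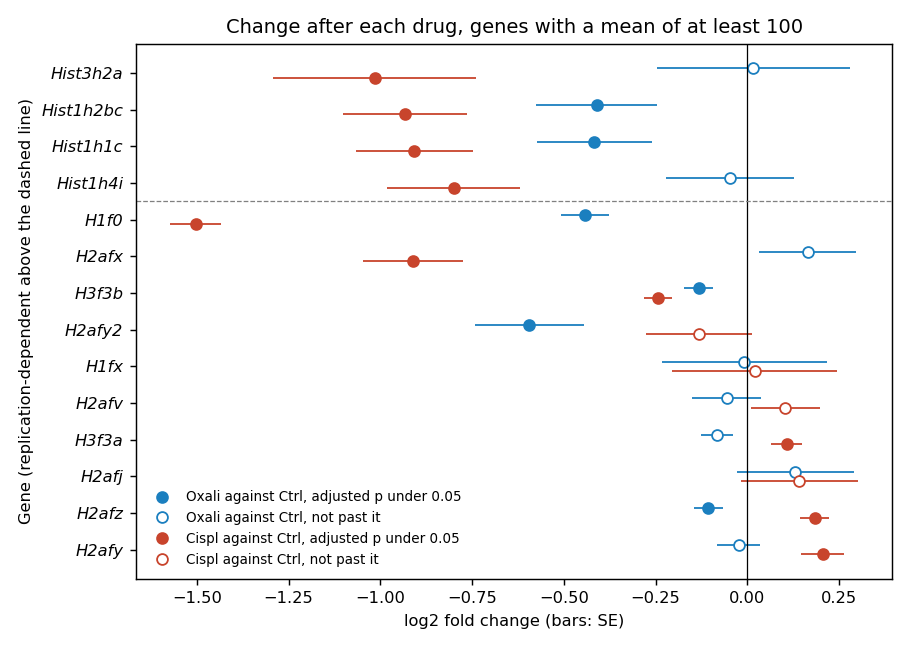
Log2 fold change against Ctrl for each histone gene with a mean of at least 100 normalised counts, with Oxali in blue and Cispl in red, filled where the DESeq2 adjusted p was under 0.05. Bars are SE. The 4 replication-dependent genes above the dashed line lie between −1.02 and −0.80 with Cispl and between −0.42 and 0.02 with Oxali.

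Hist1h1c (ENSMUSG00000036181, chr13:23738808-23740367, GRCm38), which encodes a linker histone H1, had 541 and 438 normalised counts in Ctrl, 369 and 363 with Oxali and 264 and 258 with Cispl. The groups did not overlap, and Cispl was lowest. The log2 fold change was −0.42 ± 0.16 (SE) with Oxali (DESeq2 adjusted p = 0.0328) and −0.91 ± 0.16 with Cispl (DESeq2 adjusted p = 2.18e-07). The Oxali call was lost when any library other than control replicate 2 was left out (DESeq2 adjusted p 0.101 to 0.467, the highest without control replicate 1) and with no filter on low counts (0.0550), and the Cispl call was kept without each library.

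Hist1h2bc (ENSMUSG00000018102, chr13:23684199-23692908), which encodes an H2B, had nearly the same pattern, with 535 and 428 in Ctrl, 367 and 357 with Oxali and 268 and 236 with Cispl. Again the groups did not overlap. It fell by 0.41 ± 0.16 in log2 units with Oxali (DESeq2 adjusted p = 0.0489) and by 0.93 ± 0.17 with Cispl (DESeq2 adjusted p = 4.34e-07). As for Hist1h1c, the Oxali call was lost without any library but control replicate 2 (DESeq2 adjusted p 0.116 to 0.530), with no filter on low counts (0.0774), with no independent filtering (0.0601) and with only the 4 libraries compared (0.0577). The Cispl call was kept without each library.

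Hist1h4i (ENSMUSG00000060639, chr13:22040636-22041362), an H4 gene, had 343 and 289.7 in Ctrl, 292 and 320.3 with Oxali and 189 and 174 with Cispl. Oxali and Ctrl overlapped while both Cispl libraries lay lower. The log2 fold change was −0.05 ± 0.18 with Oxali (DESeq2 adjusted p = 0.894), an interval of −0.39 to 0.30, and −0.80 ± 0.18 with Cispl (DESeq2 adjusted p = 9.18e-05), a call kept without each library.

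Hist3h2a (ENSMUSG00000078851, chr11:58954685-58956830), an H2A gene of the small cluster on chromosome 11, had 169 and 137 in Ctrl, 133 and 177 with Oxali and 71.6 and 79.8 with Cispl. Only Cispl was set apart from Ctrl. The log2 fold change was 0.02 ± 0.26 with Oxali (DESeq2 adjusted p = 0.978), an interval of −0.50 to 0.53, and −1.02 ± 0.28 with Cispl (DESeq2 adjusted p = 0.00141). The Cispl call was lost without control replicate 1 (0.0952) or cisplatin replicate 1 (0.0777). The gene shares exonic sequence with Trim17 on the same strand, so that its counts are less certain.

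Among the variants the linker histone gene H1f0 (ENSMUSG00000096210, chr15:79028450-79030504) had the largest change with Cispl. It encodes a replacement H1 known to build up in cells that stop dividing and differentiate. Normalised counts were 4195 and 3931 in Ctrl, 2959.7 and 3017 with Oxali and 1499 and 1366 with Cispl. The 3 groups were well separated, in the order Ctrl, Oxali, Cispl. The log2 fold change was −0.44 ± 0.07 with Oxali (DESeq2 adjusted p = 5.43e-10) and −1.50 ± 0.07 with Cispl (DESeq2 adjusted p = 5.70e-103), and both calls were kept when any 1 library was left out. Without H1f0 the log2 ratio of the summed variants to Ctrl was −0.001 with Cispl and −0.10 with Oxali. The other variant linker gene, H1fx, had 137 to 154 normalised counts in all 6 libraries, with log2 fold changes of −0.01 ± 0.23 (Oxali, DESeq2 adjusted p = 0.986) and 0.02 ± 0.23 (Cispl, DESeq2 adjusted p = 0.964).

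H2afx (ENSMUSG00000049932, chr9:44334694-44336077) encodes H2A.X, the variant that is phosphorylated at DNA breaks, and was the variant in which the stem-loop above was found. Normalised counts were 989 and 769 in Ctrl, 956 and 1014 with Oxali and 486 and 448 with Cispl, so that Cispl lay apart while Oxali overlapped Ctrl. The log2 fold change was 0.16 ± 0.13 with Oxali (DESeq2 adjusted p = 0.411), an interval of −0.09 to 0.42, and −0.91 ± 0.14 with Cispl (DESeq2 adjusted p = 6.83e-10). With Cispl it stood at 0.532 of its Ctrl level, and this call was kept without each library. The 4 replication-dependent genes called stood at 0.495 (Hist3h2a), 0.524 (Hist1h2bc), 0.533 (Hist1h1c) and 0.574 (Hist1h4i) with Cispl. With Oxali H2afx stood at 1.12 of its Ctrl level, and these 4 stood at 1.01, 0.752, 0.749 and 0.968, in the same order. H2afx and H1f0 each share exonic sequence with an annotated gene on the opposite strand, as do H2afy, H2afy2, H2afj and H3f3a. H1fx shares it with annotated genes on both strands.

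The remaining H2A variants changed by less. H2afz, an H2A.Z gene whose product marks promoters, had 11784 and 11253 in Ctrl, 10709 and 10692 with Oxali and 13298 and 12857 with Cispl. It lay below Ctrl with Oxali and above it with Cispl, at log2 fold changes of −0.11 ± 0.04 (DESeq2 adjusted p = 0.0344) and 0.18 ± 0.04 (DESeq2 adjusted p = 3.99e-05). The Oxali call was not made by edgeR (adjusted p = 0.0551), nor by DESeq2 under a filter of 10 counts in each library (0.0540) or with only the 4 libraries compared (0.0722), and was lost without any library but control replicate 2 (DESeq2 adjusted p 0.0841 to 0.353). H2afv, the other H2A.Z gene, had 1019 to 1196 normalised counts, with log2 fold changes of −0.06 ± 0.09 (Oxali, DESeq2 adjusted p = 0.731) and 0.10 ± 0.09 (Cispl, DESeq2 adjusted p = 0.434). H2afj had 345 to 450.3, with log2 fold changes of 0.13 ± 0.16 (Oxali, DESeq2 adjusted p = 0.625) and 0.14 ± 0.16 (Cispl, DESeq2 adjusted p = 0.553).

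The macroH2A genes, whose products carry a large globular domain besides the histone fold, differed between drugs. H2afy had 2349 and 2351 in Ctrl, 2316 and 2308 with Oxali and 2694 and 2725 with Cispl, and only the Cispl change was called, at 0.21 ± 0.06 on the log2 scale (DESeq2 adjusted p = 0.00222) against −0.02 ± 0.06 with Oxali (DESeq2 adjusted p = 0.834). The Cispl call was lost without any 1 of the Ctrl or Cispl libraries (DESeq2 adjusted p 0.0547 to 0.118). H2afy2 moved with Oxali instead, from 404 and 401 in Ctrl to 264 and 269, while Cispl had 383 and 351. Its log2 fold change was −0.59 ± 0.15 with Oxali (DESeq2 adjusted p = 0.000563), a call lost without oxaliplatin replicate 1 (0.0747) or replicate 2 (0.0523). With Cispl it was −0.13 ± 0.15 (DESeq2 adjusted p = 0.542), an interval of −0.42 to 0.15.

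H3f3a and H3f3b encode the same replacement H3 protein, which is deposited outside of replication, and they moved apart with Cispl. H3f3b had 13823 and 13369.6 in Ctrl, 12310.2 and 12484 with Oxali and 11689 and 11259.7 with Cispl, at log2 fold changes of −0.13 ± 0.04 (DESeq2 adjusted p = 0.00350) and −0.24 ± 0.04 (DESeq2 adjusted p = 4.36e-09). Its Oxali call was lost without control replicate 1 (0.108) or either Oxali library (0.0793 and 0.158). H3f3a had 6403 and 6482 in Ctrl, 5964 and 6207 with Oxali and 6929 and 6952 with Cispl, at log2 fold changes of −0.08 ± 0.04 (DESeq2 adjusted p = 0.155) and 0.11 ± 0.04 (DESeq2 adjusted p = 0.0396). The H3f3a call with Cispl was lost without any 1 library (DESeq2 adjusted p 0.129 to 0.283) and under TMM scaling (0.0544) or total-count scaling (0.313), under a filter of 10 counts in each library (0.0568), with the length trend removed (0.148) and with only the 4 libraries compared (0.100). Summed over both genes, counts were 18274 and 18691 with Oxali and 18618 and 18212 with Cispl, both below the 20226 and 19852 of Ctrl.

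**Figure D4:**
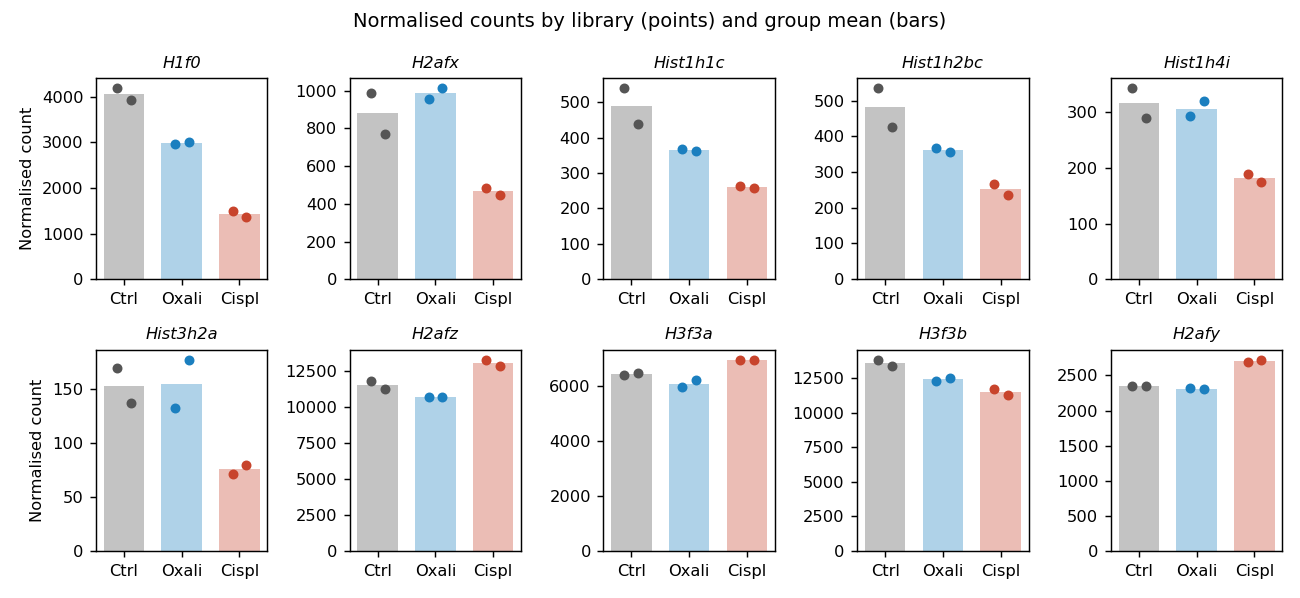
Normalised counts of 10 histone genes, with a point for each library and a bar for the mean of its group, each panel on its own axis from 0. H1f0, H2afx, Hist1h1c, Hist1h2bc, Hist1h4i and Hist3h2a are lowest with Cispl, whereas H2afz, H3f3a and H2afy are highest with Cispl.

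The drugs were also compared with each other at the same dose and time. Across all genes 19.9% were called, 8.62% higher and 11.3% lower with Oxali than with Cispl. Of the 26 replication-dependent genes 4 were higher with Oxali and 0 were lower, and of the 10 variants 3 were higher (H1f0, H2afx and H3f3b) and 4 lower (H2afy, H2afy2, H2afz and H3f3a). No replication-dependent gene was lower at an unadjusted p under 0.05 in DESeq2 or by edgeR. The median log2 difference was 0.43 over the 26, −0.09 over the 10 and −0.003 over all genes, and libraries did not overlap for 13 of the 26 and 8 of the 10, against 68.0% of all genes.

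Among the members called, the differences between the drugs were largest in H2afx, H1f0 and Hist3h2a. On the log2 scale H2afx was higher with Oxali by 1.08 ± 0.14 (DESeq2 adjusted p = 1.87e-13), H1f0 by 1.06 ± 0.07 (DESeq2 adjusted p = 5.63e-50) and Hist3h2a by 1.03 ± 0.28 (DESeq2 adjusted p = 0.00149). The calls of H2afx and H1f0 were kept without each library. For Hist3h2a, DESeq2 gave no adjusted p without any 1 of the 4 drug libraries, where independent filtering set the gene aside, so its call was not kept there (log2 differences of 0.81 to 1.23). Hist1h4i was higher with Oxali by 0.75 ± 0.18 (DESeq2 adjusted p = 0.000349), lost without oxaliplatin replicate 2 (0.0774) or cisplatin replicate 2 (0.0581). Hist1h2bc and Hist1h1c were higher by 0.52 ± 0.17 (DESeq2 adjusted p = 0.0119) and 0.49 ± 0.16 (DESeq2 adjusted p = 0.0133), and both calls were lost without any 1 of the 4 drug libraries (0.0714 to 0.241 and 0.153 to 0.207). Hist1h4k, a low H4 gene chosen after its values were seen, had 13.9 and 10.2 normalised counts with Oxali and 0 and 1.02 with Cispl, but 1.04 and 5.91 in Ctrl. It passed the filter through the Oxali libraries, so this is a description with no test.

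In the variants that were lower with Oxali than with Cispl, the differences were smaller. The log2 difference of H2afz was −0.29 ± 0.04 (DESeq2 adjusted p = 1.90e-11), kept without each library. H3f3a differed by −0.19 ± 0.04 (DESeq2 adjusted p = 0.000105), lost without oxaliplatin replicate 1 (0.0917). H2afy and H2afy2 differed by −0.23 ± 0.06 (DESeq2 adjusted p = 0.000700) and −0.46 ± 0.15 (DESeq2 adjusted p = 0.0109), calls lost without any 1 of the 4 drug libraries (0.0613 to 0.0884 and 0.106 to 0.287), as was the higher H3f3b (0.11 ± 0.04, DESeq2 adjusted p = 0.0194, 0.0608 to 0.323 without 1 library). No difference was called for H2afv (−0.16, interval −0.34 to 0.02, DESeq2 adjusted p = 0.210), H2afj (−0.01, interval −0.32 to 0.30, DESeq2 adjusted p = 0.973) or H1fx (−0.03, interval −0.47 to 0.41, DESeq2 adjusted p = 0.951).

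The promoters of 4 genes that fell with Cispl by over 0.5 in log2 units are printed to show the sequence before their starts, 250 bases from RefSeq (GRCm38.p6), 5′ to 3′ on the strand of the gene. H2afx and Hist1h2bc, which also fell, have no entry in the promoter table. H3f3b, which fell by less, has an entry, not printed, with the octamer and matches to the CCAAT box and the TATA element. Capitals mark the CCAAT box, the TATA element TATAAA, the octamer ATTTGCAT and the H1 box AAACACAA or their reverse complements.
Hist1h1c: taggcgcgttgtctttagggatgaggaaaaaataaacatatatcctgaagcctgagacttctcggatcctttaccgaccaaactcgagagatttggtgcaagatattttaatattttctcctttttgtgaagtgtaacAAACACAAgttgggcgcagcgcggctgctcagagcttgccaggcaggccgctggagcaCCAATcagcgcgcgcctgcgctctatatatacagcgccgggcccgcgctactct
Hist1h4i: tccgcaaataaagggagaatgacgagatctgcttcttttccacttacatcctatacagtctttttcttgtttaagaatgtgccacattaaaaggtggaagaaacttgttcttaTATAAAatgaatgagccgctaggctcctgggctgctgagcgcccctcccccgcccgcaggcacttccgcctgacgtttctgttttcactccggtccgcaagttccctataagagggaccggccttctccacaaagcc
Hist3h2a: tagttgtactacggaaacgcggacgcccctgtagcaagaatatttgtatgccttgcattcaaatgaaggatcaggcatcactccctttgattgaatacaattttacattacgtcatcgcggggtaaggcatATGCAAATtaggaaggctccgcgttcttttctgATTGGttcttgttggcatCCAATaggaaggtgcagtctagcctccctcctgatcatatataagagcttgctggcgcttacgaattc
H1f0: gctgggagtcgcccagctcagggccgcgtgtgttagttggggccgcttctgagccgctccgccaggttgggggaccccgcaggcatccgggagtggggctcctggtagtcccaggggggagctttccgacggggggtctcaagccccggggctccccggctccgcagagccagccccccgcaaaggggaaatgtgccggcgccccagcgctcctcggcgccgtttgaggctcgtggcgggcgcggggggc
They lie at chr13:23738557-23738806 (plus strand), chr13:22041363-22041612 (minus strand), chr11:58954435-58954684 (plus strand) and chr15:79027962-79028211 (plus strand). Hist1h1c holds the H1 box and CCAAT, Hist3h2a holds the octamer and CCAAT on both strands, and Hist1h4i holds only TATAAA. GC was 75.0% for H1f0 in a window that also takes in the 50 bases after the RefSeq start. The printed H1f0 window holds none of the 4. It precedes the RefSeq start and ends at chr15:79028211, whereas the counted GENCODE gene starts at 79028450. Bases directly before that later start were not searched, so the elements may be present there. In windows of 300 bases (250 before and 50 after the start), searched on both strands, CCAAT was present in 85.5% of 62 replication-dependent, 75% of 12 variant and 37.4% of all 32851 promoters. TATAAA was present in 56.5%, 8.33% and 13.6%, the octamer in 21%, 8.33% and 1.74%, and the H1 box in 9.68%, 8.33% and 1.93%. These are matches of letters, not sites that were measured.

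Genes that act on histone mRNA or histone protein were then read in the same fits. Of 17 histone mRNA processing genes, 3 rose and 0 fell with Oxali (1 fell at an unadjusted DESeq2 p under 0.05, and edgeR called 1 lower), and 10 rose and 1 (Tut7) fell with Cispl. Of all genes 10.7% rose and 9.5% fell with Oxali, and 15.7% rose and 12.4% fell with Cispl. The median log2 fold change was 0.07 with Oxali and 0.19 with Cispl. Slbp, whose product binds the stem-loop, had 2419 and 2228 normalised counts in Ctrl, 2510.3 and 2558 with Oxali and 3589.9 and 3549 with Cispl. Its log2 fold change was 0.62 ± 0.06 with Cispl (DESeq2 adjusted p = 1.91e-21) and 0.13 ± 0.06 with Oxali (DESeq2 adjusted p = 0.137). Srrt and Ncbp2, which act with the cap of the mRNA, rose with Cispl by 0.29 ± 0.05 (DESeq2 adjusted p = 3.71e-08) and 0.32 ± 0.06 (DESeq2 adjusted p = 7.32e-07).

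Histone chaperone and exchange genes moved both ways. Of 25, 6 rose and 2 fell with Oxali, and 9 rose and 5 fell with Cispl, with medians of 0.06 in both, beside the shares of all genes just given (10.7% and 9.5%, then 15.7% and 12.4%). Nap1l1, a chaperone of H2A and H2B, rose with Oxali by 0.23 ± 0.03 (DESeq2 adjusted p = 9.40e-11) and with Cispl by 0.40 ± 0.03 (DESeq2 adjusted p = 1.49e-31). Chaf1a, a subunit of the replication-coupled chaperone CAF-1, rose with Cispl by 0.36 ± 0.06 (DESeq2 adjusted p = 1.03e-09). Hjurp, the chaperone of the centromeric H3, fell by 0.15 ± 0.05 with Oxali (DESeq2 adjusted p = 0.00933) and by 0.37 ± 0.05 with Cispl (DESeq2 adjusted p = 5.25e-13).

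Replication-dependent histone mRNAs normally follow S phase, so S phase genes are given beside them. Of 24 S phase genes 7 rose and 2 fell (Pcna and Mcm7) with Oxali, and 22 rose and 1 fell (Ung) with Cispl, with medians of 0.08 and 0.36. The shares over all genes were 10.7% and 9.5% with Oxali and 15.7% and 12.4% with Cispl. Summed normalised counts were 86239 and 84728 in Ctrl, 89929.7 and 90098 with Oxali and 108097 and 109314 with Cispl. Rrm2, a subunit of ribonucleotide reductase, rose by 0.21 ± 0.05 with Oxali (DESeq2 adjusted p = 0.000113) and 0.60 ± 0.05 with Cispl (DESeq2 adjusted p = 1.45e-33), and Mcm3, of the replicative helicase, by 0.32 ± 0.04 (DESeq2 adjusted p = 9.68e-14) and 0.47 ± 0.04 (DESeq2 adjusted p = 1.17e-28). Ccne2, a cyclin E, rose by 0.99 ± 0.10 with Cispl (DESeq2 adjusted p = 2.48e-22). With Cispl the S phase list and the 4 replication-dependent genes moved in opposite directions in these poly(A) libraries. Whether histone mRNA without a poly(A) tail changed was not measured, and the part of the cell cycle in these values was not tested.

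**Figure D5:**
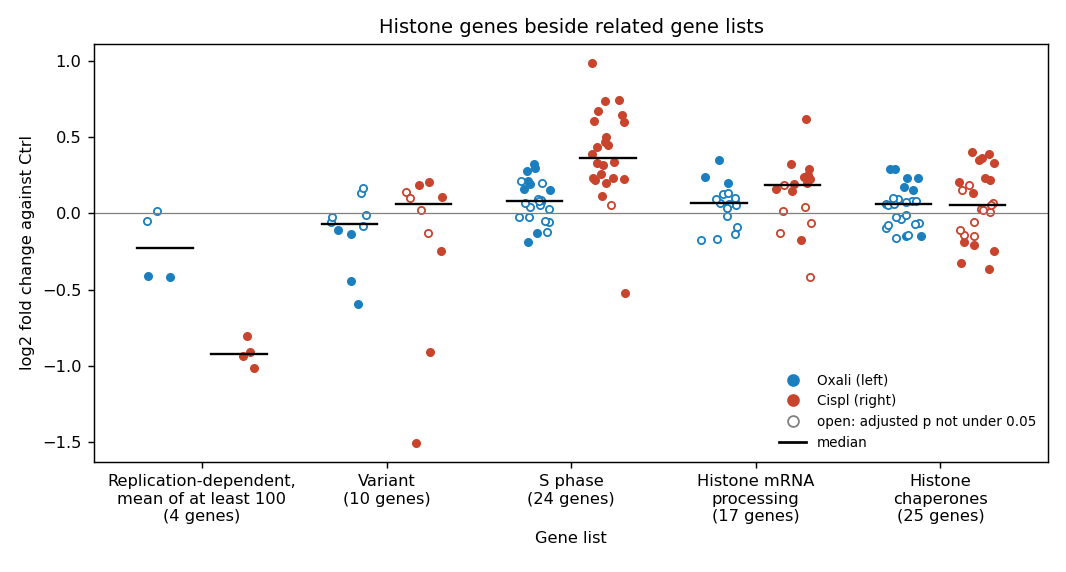
Log2 fold change against Ctrl of each gene in 5 lists, with Oxali on the left and Cispl on the right of each pair, filled where the DESeq2 adjusted p was under 0.05 and with a line at the median. With Cispl the median is 0.36 for the 24 S phase genes and 0.19 for the 17 histone mRNA processing genes, while the 4 replication-dependent genes with a mean of at least 100 lie at −0.80 or lower.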

How the data were processed

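Poly(A) RNA of TRAMP-C2 cells was sequenced from stranded libraries, 2 per group, with groups and replicate numbers from the labels. The authors deposited expected counts per gene from RSEM, which divides reads among copies. The submitters' processing notes name STAR 2.5.3a, RSEM 1.3.0 and GRCm38.p6, whereas the study's methods name another counter for its cell line RNA-seq. Whether counting used strand is not given in the sources used here.

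Expected counts were rounded, and a gene was kept if 2 or more libraries held at least 10 counts of it (14956 genes). DESeq2 (version 1.42.0, R 4.3.3) was fitted to all 6 libraries with group as factor. Wald tests were two-sided, log2 fold changes unshrunken with 95% intervals of the fit, and p values adjusted by Benjamini-Hochberg within each contrast over all genes (threshold 0.05, independent filtering at 0.1). Values are mean ± SD over 2 libraries or log2 fold change ± SE. Symbols came from GENCODE M21 (54409 identifiers matched), stem-loops from its transcripts, and promoters from RefSeq (74 of 80 members). Members, lists and tests were chosen with earlier results of these data known. Statistics are printed for members called with a mean of at least 100 normalised counts, for 9 variants in every contrast (H2afx, H2afz, H2afv, H2afy, H2afj, H3f3a, H3f3b, H1f0, H1fx), and for the 3 genes of each other list with the smallest adjusted p in Cispl against Ctrl. Hist2h2be and Hist1h4k were added after their values were seen. Some cell type markers are not reported here.

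On simulated data with 200 of 14956 genes given a log2 change of 1, 76% were recovered by DESeq2 with Oxali and 73.5% with Cispl (96.1% and 93.3% of those with a mean of at least 100), while false calls made up 10.1% and 9.26% of its calls. The alternatives tried were the quasi-likelihood test of edgeR (version 4.0.16), other scalings, filters and thresholds, a replicate block and leaving out each library.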

Additional observations from a re-analysis of the deposited data

How the results depend on the processing

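Replicate numbers 1 and 2 recur in each group. Deviations from group means correlated at 0.0101 (Ctrl with Oxali), 0.0375 (Ctrl with Cispl) and −0.0128 (Oxali with Cispl) over 14956 genes. No shift shared by libraries of the same number was thus seen, but the labels do not say whether such libraries were made together. With a replicate block, 0 replication-dependent genes were called in Oxali against Ctrl instead of 2, and 7 calls of single genes were lost. These were Hist1h1c (adjusted p = 0.126), Hist1h2bc (0.139) and H2afz (0.0825) in Oxali against Ctrl, H3f3a (0.124) in Cispl against Ctrl, and Hist1h1c (0.0671), H2afy2 (0.0883) and H3f3b (0.0681) in Oxali against Cispl. That count was also 0 with no filter on low counts and 1 with no independent filtering or with only the 4 libraries compared. Requiring an absolute log2 fold change of 1 left 0, 1 and 1 replication-dependent and 0, 1 and 2 variant genes in Oxali against Ctrl, Cispl against Ctrl and Oxali against Cispl. Leaving out 1 library gave 0 to 2, 3 to 4 and 0 to 4 replication-dependent and 1 to 4, 4 to 5 and 3 to 7 variant genes in the same order. The log2 ratios of summed replication-dependent counts then ranged from −0.36 to −0.03, from −0.85 to −0.52 and from 0.48 to 0.50, and those of summed variant counts from −0.16 to −0.10, −0.12 to −0.07 and −0.05 to −0.01. With counts scaled to the library total, the replication-dependent log2 ratio of Oxali to Cispl was 0.53 instead of 0.49. Without the variant with the most counts the variant ratio was −0.0288 in Cispl against Ctrl and −0.0997 in Oxali against Cispl. Detected replication-dependent genes numbered 62 with at least 1 count in any library, 10 with at least 10 and 3 with at least 100 in every library, instead of 26. Only small log2 fold changes that were not called turned sign, and for those that turned when a library was left out both ends of the range are given. In Oxali against Ctrl these were H2afj (−0.0134 to 0.296), H2afx (−0.00263 to 0.359) and H2afv (−0.126 to 0.0212), each between leaving out control replicate 1 and control replicate 2. In Cispl against Ctrl these were H1fx with the length trend removed (−0.0481), with total-count scaling (−0.0281), without cisplatin replicate 1 (−0.0659, against 0.0988 without replicate 2) and without control replicate 2 (−0.00743), and H2afj without control replicate 2 (−0.00597, against 0.304 without replicate 1). In Oxali against Cispl these were H1fx with total-count scaling (0.00589) and H2afj with the length trend removed (0.0307), with total-count scaling (0.0235), without cisplatin replicate 1 (0.0577) and without oxaliplatin replicate 1 (0.0799, against −0.107 without replicate 2). The cause of these shifts was not tested. Of all single values recomputed, 545 kept their direction and side of the threshold, 96 lost a call and 13 turned sign. Another 9 had no adjusted p when a library was left out and are not counted, 4 for Hist3h2a in Oxali against Cispl and 5 for H1fx, whose log2 fold changes there ranged from −0.11 to 0.06. Where a group was down to 1 library, that library was assumed to vary like the others. Depth limits the 22 tested replication-dependent genes with a mean under 100 normalised counts.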

Other observations

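Besides the 80 protein-coding members, 9 entries of the table carry histone symbols but are annotated as pseudogenes or as antisense RNA. The processed pseudogene H3f3c on chromosome 2 had 631 and 377 normalised counts in Ctrl, 379 and 352 with Oxali and 623 and 385 with Cispl. The libraries of Ctrl overlapped with those of both drugs. H3f3aos, annotated antisense to H3f3a, had 19.7 and 7.88 in Ctrl, 9.28 and 12.3 with Oxali and 12.7 and 9.21 with Cispl. The other 7 entries had fewer than 10 normalised counts in every library. Reads of H3f3c and of H3f3a can be hard to tell apart, and H3f3a had 72.9% of its 50-base stretches in no other gene's transcripts.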
